A study of Glycine max with 24 samples.

Results

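Chromosome 15 of soybean (Glycine max) was described through the 2007 transcripts whose identifiers begin with Glyma15g, out of 41743 transcripts measured, which is 4.81% of the table. The members were taken from the identifier alone and put in the order of the 5-digit number that follows the g, which runs from 200 to 43380. This number gives the order of loci along the chromosome as numbered, not a base position. The 2007 transcripts come from 2000 loci, of which 7 have more than 1 transcript model. Chromosome 15 was selected on transcript levels measured in these same libraries, with results per chromosome already in view. Its counts and its place among the chromosomes are therefore given as a description, without a test of the chromosome as a whole.

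RNA was sequenced from leaves of 3-week-old plants in 24 libraries, 3 for each combination of 4 lines and 2 treatments. The recombinant inbred lines R-11268 and R-11272 descend from a cross of the other two lines, LD and LDX. For each pool, leaves of 5 plants of 1 line were infiltrated with water, cut into slices and split between 2 dishes. One dish received 5 ml with 1 uM flg22 and 50 ug crab shell chitin, called MAMP here, and the other received water with the same amount of DMSO, called control, for 30 min in the dark. All plants had grown under a 16 h photoperiod, and the control and MAMP libraries with the same line and replicate number are taken to come from 1 pool. Only these 2 inbred lines were sampled, so what is said of each holds for that line and not for the population. Whether all plants of a line had the same genotype was not tested.

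A recombinant inbred line is made by crossing 2 parents and selfing the offspring over many generations, so each stretch of a chromosome comes to be inherited from one parent or the other, and neighbouring loci usually come from the same parent. Where the parents differ in the level of a transcript because of a variant at or near its own gene, an inbred line tends to carry the level of the parent that gave it that stretch. Variants elsewhere in the genome and growth conditions can also set a level. Of the elicitors used, flg22 is a stretch of the flagellin of bacteria, while chitin is found in the walls of fungal cells. Plant cells sense both with receptors at the cell surface, and transcription of defence genes follows within minutes.

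The identifiers carry no gene names, and 0 of the chromosome 15 loci were found in the table of gene names at hand, so the transcripts are given by identifier and no function is assigned. For the same reason, the leaf origin of the RNA could not be checked against marker genes. Library totals ran from 9780810 to 20827163 estimated counts, of which chromosome 15 took 4.77% to 5.74%, and 1735 to 1845 of its transcripts had more than 1 estimated count in a library. In each line, once libraries were scaled, a transcript's deposited values had the same ratio of MAMP to control in all 3 pools, with an SD of at most 4.64e-09 on the log2 scale over the chromosome 15 transcripts above a trace level. Plain read counts would scatter, so differences between lines were tested on the 12 pool sums. The MAMP tests used all 24 libraries and set the mean response against the spread in level between pools. Since the ratio is constant within a line, the pools hold no replicate measure of the response itself, and neither the MAMP p-values nor a lack of overlap between treatments shows that it was repeatable. Scarce transcripts also varied less between libraries than counting allows. The median ratio to the counting variance was 0.0647 to 0.254 for 5.5 to 30 estimated counts per group, and 1.85e-05 to 0.00205 for 0.5 to 5.5. The tests see too little error there, and the cause was not tested.

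Of the 12 pools, 3 stood apart. In LDX replicate 3, 27.0% of 1312 well-measured chromosome 15 transcripts lay 2-fold or more from the median of its line, in R-11272 replicate 1 30.0% did, and in LD replicate 2 8.99% did. The other 9 pools had 0.0% to 3.43%. In each of those 3 lines, the chromosome 15 share of the library was highest in the pool that stood apart. Results are therefore given with all pools and, where they move, without these 3.

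Between the parents, 73 of 1637 tested chromosome 15 transcripts differed, 38 higher in LD and 35 higher in LDX, which is 2.32% and 2.14% beside 1.97% and 1.88% of all tested transcripts. The differences were large: 66 of the 73 were 2-fold or more (4.03% of the tested beside 3.32% of all), and 15 of those higher in LD and 10 of those higher in LDX were 8-fold or more. Over all 34807 transcripts tested, 3.85% were called, against 4.46% on chromosome 15, and the share per chromosome ranged from 1.63% to 7.76% with chromosome 15 in place 6 of 20. A call here is a Benjamini-Hochberg adjusted p under 0.05 in edgeR's quasi-likelihood test, adjusted over every tested transcript of the table. The median log2 difference, LD minus LDX, was -0.07 on chromosome 15 and -0.06 over all tested transcripts. Without the 3 pools that stood apart, 155 were called, 95 higher in LD and 60 higher in LDX, which is 9.47% beside 8.1% of all tested.

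Transcripts are named here if called, averaging at least 20 estimated counts per library and showing no overlap between the 2 lines compared, and the largest differences among these are described. Scarcer transcripts with larger differences are left out by this rule. In LD, Glyma15g28850.1 had 19.3, 17.1 and 13.4 CPM (counts scaled to library size with edgeR) in control and 18.0, 15.6 and 12.4 in MAMP. In LDX its 6 libraries together held 1.33e-06 estimated counts, which is 0 for practical purposes. R-11272 stood with LD, at 10.6, 16.3 and 16.8 CPM in control, and R-11268 had 8.11, 0.692 and 6.15 CPM. Every LD library was above every LDX library, and replicate 2 of R-11268 lay far below the other 2 pools of its line. Against a floor of 3 counts over the 6 LDX libraries, the level was at least 532-fold higher in LD (edgeR adjusted p = 0.0017, 3 pools per line).

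Glyma15g15750.1 gave the same order of parents. LD control libraries had 5.18, 10.4 and 5.92 CPM, and the 6 LDX libraries together held 0.914 estimated counts against 640 in LD. The ratio was 784, with a 95% counting interval, which covers counting error alone, from 128 to 28400 (edgeR adjusted p = 0.00364). R-11272 control pools had 38.6, 7.59 and 5.37 CPM, so its first pool, one of the 3 that stood apart, was high while the other 2 overlapped LD. R-11268 lay between the parents, at 1.39, 0.797 and 1.64 CPM, with no overlap with either.

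Glyma15g27470.1 was the reverse case, on in LDX and R-11268 and near 0 in LD and R-11272. Its control CPM values were 9.32, 10.9 and 24.9 in LDX and 7.77, 9.19 and 8.5 in R-11268, while the 3 LD control libraries held 2.54e-07 estimated counts and those of R-11272 2.47e-07. In MAMP libraries, LD had 0.106, 0.119 and 0.108 CPM and R-11272 0.137, 0.0883 and 0.0793, a trace that amounts to 4.90 estimated counts in each of these lines. The 6 libraries of LDX and the 6 of R-11268 were all above all 12 of the other pair of lines. LD minus LDX was -7.64 ± 0.48 (log2, SE, edgeR adjusted p = 7.8e-06), and the level was 232 times higher in LDX, with a counting interval from 97.2 to 702.

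Glyma15g10640.1 was also lower in LD, by a smaller and less certain margin. Control libraries had 0.0512, 0.230 and 0.164 CPM in LD and 1.74, 3.61 and 13.1 CPM in LDX, where the high value is the pool that stood apart. The parents did not overlap, and the log2 difference was -4.38 ± 1.01 (SE, edgeR adjusted p = 0.0402). In 9 of 20 alternatives it passed no longer, and without LDX replicate 3 it was -3.19 with an edgeR adjusted p of 0.0716.

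**Figure D1:**
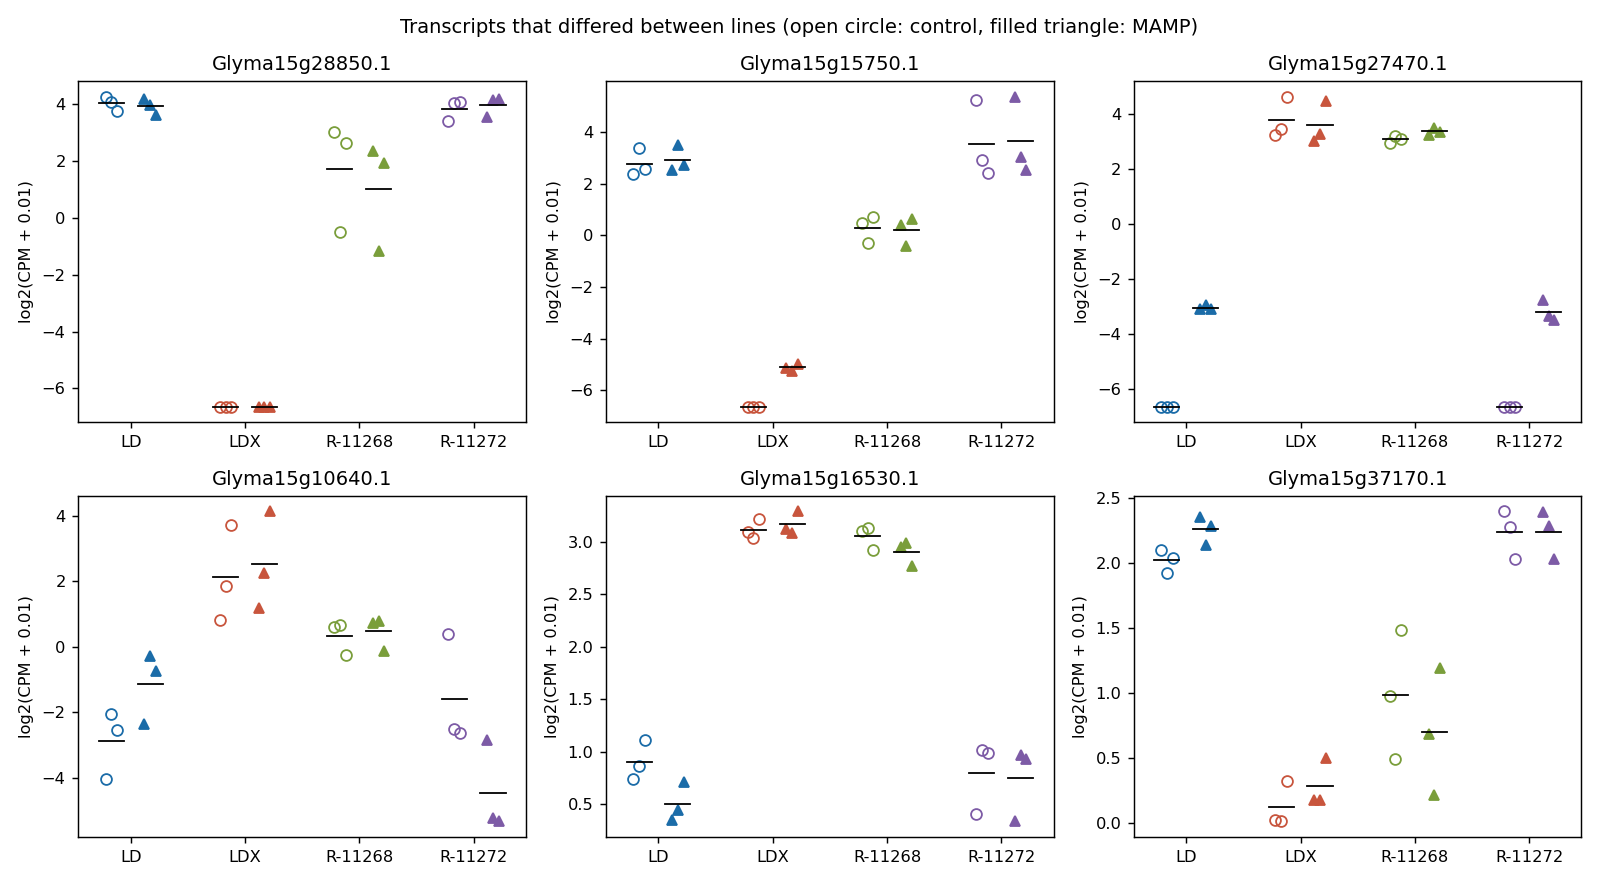
Level of the 6 transcripts named for line differences, as log2(CPM + 0.01), in each library of the 4 lines; open circles are control, filled triangles MAMP, and black bars the mean of 3 libraries on that scale. Points at the foot of the panels of Glyma15g28850.1, Glyma15g15750.1 and Glyma15g27470.1 are libraries at 0, and in Glyma15g28850.1, Glyma15g27470.1, Glyma15g16530.1 and Glyma15g37170.1 R-11272 lies with LD.

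Transcripts that were present in one parent and near 0 in the other were counted on the estimated counts summed over a line's 6 libraries, with 60 or more as present and 3 or fewer as near 0. On chromosome 15, 6 transcripts were present in LD and near 0 in LDX. R-11272 had 60 or more counts in 6 of these 6, and R-11268 in 4, with 0 of the 6 near 0 in either line. In the other direction, 3 transcripts were present in LDX and near 0 in LD. R-11268 had 60 or more in 3 of the 3, and R-11272 was near 0 in 3 of the 3. Over the 20 chromosomes the same rule found 80 transcripts present in LD alone of the parents and 69 in LDX alone, which is 0.192% and 0.166% of 41603, beside 0.299% and 0.149% on chromosome 15.

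Between the inbred lines, 28 of 1637 chromosome 15 transcripts differed, with R-11268 the higher in 17 and R-11272 in 11. The directions came to 1.04% and 0.672%, beside 0.572% and 0.690% of all tested transcripts. Together that is 1.71%, beside 1.26%, and place 4 of 20 chromosomes in a range from 0.443% to 3.57%. Of the 28, 27 differed 2-fold or more (1.65% of the tested beside 1.24% of all). The count fell to 15 without R-11272 replicate 2, and to 18, 17 and 18 without R-11268 replicates 1, 2 and 3. In these fits 0.828% to 0.874% of all tested were called. In MAMP libraries alone 16 were called, 7 higher in R-11268 and 9 lower, so the split of directions turned there. It also turned with DESeq2 (17 higher, 21 lower), without R-11272 replicate 3 (10 and 11) and with all 24 libraries (49 and 56). The last of these fits takes the control and MAMP libraries of a pool as separate replicates, which they are not. The split was even without the 3 pools that stood apart (20 and 20, 2.44% beside 1.88%).

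Of the 5 transcripts higher in R-11268 that met the naming rule, Glyma15g27470.1 differed most, with the values above. Its log2 difference was 7.45 ± 0.48 (SE, edgeR adjusted p = 2.25e-05), 188 times higher with a counting interval from 78.7 to 569. Glyma15g16530.1 was next among the 5: R-11268 control libraries had 8.61, 8.76 and 7.60 CPM and R-11272 had 1.31, 2.01 and 1.97. LDX control libraries, at 8.52, 8.22 and 9.33 CPM, overlapped R-11268, and LD, at 1.66, 1.81 and 2.15, overlapped R-11272. The level was 4.37 times higher in R-11268 than in R-11272, with a counting interval from 3.71 to 5.16, and the log2 difference was 2.20 ± 0.21 (SE, edgeR adjusted p = 0.00037).

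A single transcript met the naming rule in the other direction. Glyma15g37170.1 had 1.96, 1.4 and 2.80 CPM in R-11268 control libraries and 5.27, 4.84 and 4.09 in R-11272. The lines did not overlap, with LD near R-11272 at 4.28, 3.79 and 4.11 CPM and LDX lowest at 1.01, 1.00 and 1.24. The log2 difference, R-11268 minus R-11272, was -1.32 ± 0.25 (SE, edgeR adjusted p = 0.0293). It kept its direction but missed the threshold in 11 of 20 alternatives, among them control libraries alone (adjusted p = 0.0578) and without the 3 pools that stood apart (adjusted p = 0.0761).

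The 2 line comparisons share no pools, but they come from the same fit and use the same estimate of each transcript's spread. Calls made in both are therefore not independent. Of the 73 parental calls, 20 were also called between the inbred lines, which is 27.4% of the parental calls and 71.4% of the 28 inbred calls, beside 21.6% and 65.8% over the whole table. In 16 of the 20 the signs were opposite, meaning that R-11272 was on the LD side and R-11268 on the LDX side, and in 4 they were the same, beside 113 opposite and 176 the same over the whole table. The other 8 calls between the inbred lines were not called between the parents, and 2 of these had an unadjusted parental p under 0.05.

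To see where each inbred line lay, its mean log2 level was placed on a scale where 0 is LDX and 1 is LD, at the 65 loci with a called parental difference of 2-fold or more. A locus within 0.25 of 1 was counted as LD-like, within 0.25 of 0 as LDX-like, from 0.25 to 0.75 as between, and beyond as outside. R-11272 was LD-like at 35 of the 65 loci, LDX-like at 8, between at 17 and outside at 5. R-11268 was LD-like at 5, LDX-like at 21, between at 34 and outside at 5. Among loci that fell with one parent, R-11272 was LD-like at 81.4% and R-11268 at 19.2%. On the other 19 chromosomes these shares were 37.6% and 57.2%, in the opposite order, and chromosome 15 ranked 2 of 20 for R-11272 and 19 of 20 for R-11268.

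These shares moved with the pools used. Leaving out 1 pool at a time gave 75.5% to 87.8% for R-11272 and 20.7% to 38.9% for R-11268, and leaving out the 3 pools that stood apart gave 65.1% and 44.2%. The order of the 2 lines held in each of these. Placed by tests against each parent in place of distances, the R-11268 share was 41.0%. Every position rests on the parental means, which are also the basis on which the loci were chosen, so no test is given.

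The LD-like loci of R-11272 lay together. Reading only loci that fell with one parent, 31 in a row were LD-like, from number 10640 to number 38440. Before them came 3 LDX-like loci from 920 to 3360, then a mixed stretch up to 10490, and after them 2 LDX-like loci at 41670 and 42200. With a parental difference of 4-fold or more, the run held 23 loci from 9100 to 38440. Without the 3 pools that stood apart, the longest run held 25 loci from 20000 to 40990, and the stretch below 20000 was mixed.

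Again reading only loci that fell with one parent, R-11268 was LDX-like in 2 long runs, 11 loci from 3620 to 18560 and 9 from 23400 to 39290. These runs pass over many loci that were between or outside. Over numbers 10000 to 39999, R-11268 was between at 25 of 46 loci, LDX-like at 15 and LD-like at 3. A run of 3 LD-like loci from 20900 to 22270 lay between them. The first LDX-like run began in the mixed stretch of R-11272, and the second ended past the LD-like run of R-11272. The runs of the 2 lines therefore overlapped only in part. With a parental difference of 4-fold or more, the LDX-like runs held 6 loci from 3620 to 17800 and 6 from 23730 to 37400. Without the 3 pools that stood apart they broke up: R-11268 had 19 runs of alternating class, the longest with 6 LDX-like loci from 23730 to 37400. At 10 loci R-11268 was LDX-like where R-11272 was LD-like, and at 18 it was between where R-11272 was LD-like. At 4 loci both were LD-like, and at 3 both were LDX-like. Neighbouring classed loci had the same class in 20 of 25 pairs (80.0%) for R-11268 and 34 of 42 (81.0%) for R-11272, beside 75.6% and 76.7% over the 20 chromosomes.

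**Figure D2:**
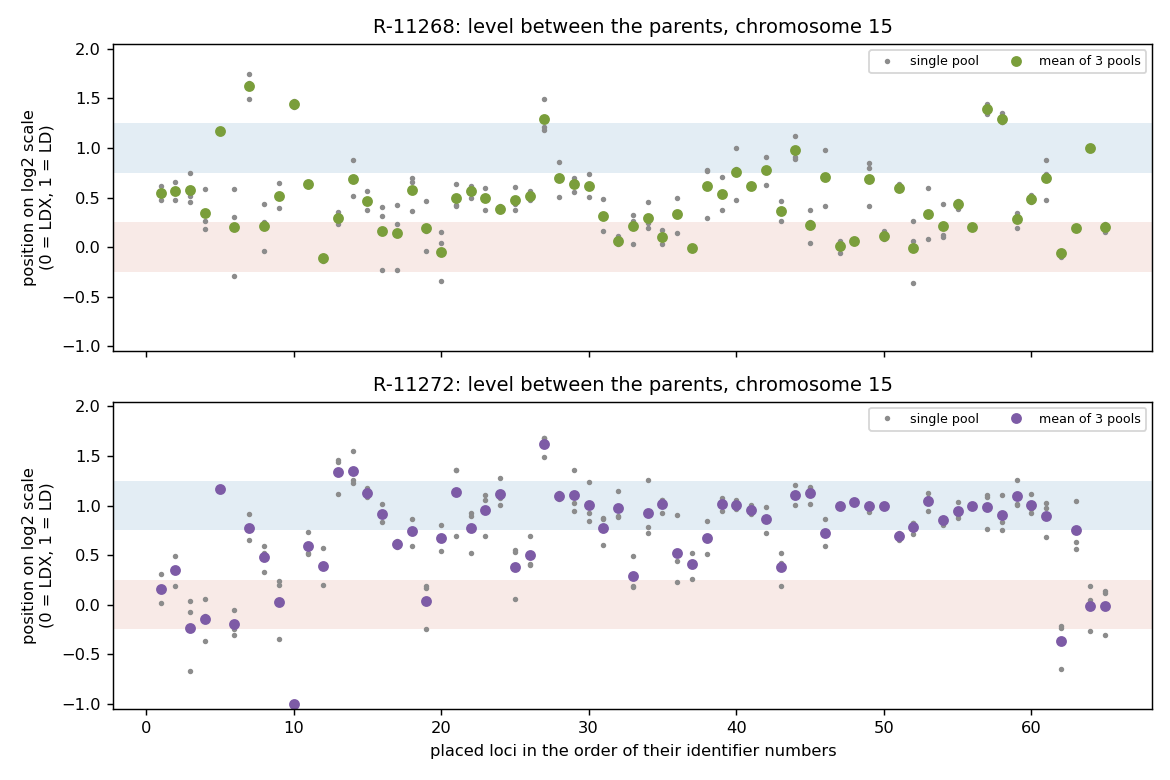
Position of R-11268 (top) and R-11272 (bottom) between the parents at 65 loci of chromosome 15 in the order of their identifier numbers, on a log2 scale where 0 is the LDX mean and 1 the LD mean. Large points are means of 3 pools, small grey points single pools, the blue band marks LD-like and the red band LDX-like positions, and points below -1 or above 2 are drawn at that edge; most R-11272 points lie in the blue band, and 34 of the 65 R-11268 points lie between the bands.

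In the median position the single pools gave the same picture, while the class counts moved. Over the 65 loci, the R-11268 pools were LD-like at 10, 5 and 9 and LDX-like at 20, 18 and 17. Their mean gave 5 and 21. The R-11272 pools were LD-like at 30, 35 and 34 and LDX-like at 6, 8 and 12, beside 35 and 8. Over the 46 loci with numbers from 10000 to 39999, the median position was 0.962, 0.908 and 0.902 in the 3 R-11272 pools. In the 3 R-11268 pools it was 0.396, 0.385 and 0.516, so the pools of the 2 lines did not overlap. Over the 17 loci below 10000, the pools of both lines lay near the middle, at 0.572, 0.520 and 0.509 for R-11272 and 0.570, 0.479 and 0.455 for R-11268.

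The middle position of R-11268 was not the same for loci higher in LD and loci higher in LDX. Over numbers 10000 to 39999, 25 loci were higher in LD, and R-11268 was between at 19 of them, with a median position of 0.538. At the 21 loci higher in LDX it was LDX-like at 13 and between at 6, with a median of 0.209. In CPM, R-11268 had a median of 42.8% of the LD level at the first kind (quartiles 27.6% and 53.2%) and 66.9% of the LDX level at the second (51.2% and 85.2%). R-11272 had 96.2% of the LD level (72.8% and 107%) and 32.6% of the LDX level (4.13% and 41.9%). Over the 20 chromosomes, R-11268 had medians of 61.5% of the LD level and 52.8% of the LDX level, and R-11272 had 52.7% and 72.5%. A level short of the higher parent was thus not particular to R-11268 or to chromosome 15. In this section R-11272 was close to LD where LD was higher and well below LDX where LDX was higher.

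Tests of each inbred line against each parent were read by the same sections of numbers. R-11272 differed from LD in 40 of 1637 transcripts, 2.44% beside 3.15% of all tested, and from LDX in 55, 3.36% beside 1.61%. In the section from 10000 to 39999, with 840 tested, 15 differed from LD and 39 from LDX. Below 10000, with 619 tested, the order was the other way, 21 from LD and 13 from LDX. The count against LD fell as single pools were left out: it was 18 without LD replicate 2, 20 without LD replicate 1, and 21 and 22 without R-11272 replicates 2 and 3. The share of all tested transcripts fell with it, to 1.52%, 1.53%, 1.93% and 2.26%. The count against LDX fell to 35 without LDX replicate 2, where the share of all tested was 1.08%. Without the 3 pools that stood apart, 64 differed from LD, 27 higher and 37 lower in R-11272, which is 3.91% beside 4.78% of all tested. Against LDX it was 57, or 3.48% beside 2.28%.

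R-11268 differed from LD in 34 transcripts, 2.08% beside 1.41% of all tested, and from LDX in 30, 1.83% beside 1.87%. From 10000 to 39999 the counts were 26 and 22, and below 10000 they were 8 and 7. The count against LD was 19 without LD replicate 1 or R-11268 replicate 1, 20 without LD replicate 2 and 22 without R-11268 replicate 2, with 0.740% to 0.816% of all tested called in these fits. Without the 3 pools that stood apart, 51 differed from LDX, or 3.12% beside 3.21% of all tested. These 4 comparisons share their parental and inbred pools with the 2 above, and no test of one section against another was made.

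Along the chromosome, the parental calls were unevenly spread. In bins of 5000 identifier numbers, 12 of 119 tested transcripts (10.1%) differed between the parents from 35000 to 39999 and 9 of 105 (8.57%) from 20000 to 24999. In the first bin, 7 of 295 (2.37%) differed, and from 40000 on 2 of 178 (1.12%), both higher in LDX. Calls between the inbred lines were also most frequent from 35000 to 39999, at 7 of 119, closely followed by 2 of 36 from 30000 to 34999. Over all tested transcripts, 3.85% differed between the parents and 1.26% between the inbred lines. Bins of other chromosomes were not counted.

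MAMP treatment changed 148 of 1549 tested chromosome 15 transcripts in the mean over the 4 lines, 115 rising and 33 falling. The rises were larger: 65 of them were 2-fold or more and 7 were 8-fold or more, while 2 of the falls reached 2-fold, so that 4.33% of the tested transcripts changed 2-fold or more beside 4.75% of all. Chromosome 15 had 9.55% called beside 9.75% of all 33214 tested transcripts, 7.42% rising beside 7.75% and 2.13% falling beside 2.00%, so it responded about as often as the genome. The median response over the tested transcripts was -0.03 on the log2 scale on chromosome 15 and -0.03 over all. Without the 3 pools that stood apart, 168 rose and 75 fell, which is 15.8% beside 17.0% of all tested in either direction.

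The lines largely shared the direction of the response. Of the 115 rising transcripts, 109 had a positive estimate in each line. The median log2 response of the 115 was highest in LD, at 1.32, followed by R-11272 at 1.2, R-11268 at 1.08 and LDX at 0.90, beside medians of -0.03 to 0.00 over all 1549 tested transcripts. Of the 33 falling, 29 had a negative estimate in all 4, with medians from -0.51 in LD to -0.41 in LDX. The 115 and the 33 were chosen on the mean of these responses, so the shared direction is partly built in.

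Tested line by line, LD had 62 transcripts that rose and 7 that fell, or 4.0% and 0.452% beside 4.38% and 0.292% of all tested transcripts, and 4.45% beside 4.67% in either direction. LDX had 43 and 5, or 2.78% and 0.323% beside 3.47% and 0.310%, and 3.10% beside 3.78% in either direction. R-11268 had 45 and 5, or 2.91% and 0.323% beside 3.16% and 0.232%, and 3.23% beside 3.39% in either direction. R-11272 had 56 and 5, or 3.62% and 0.323% beside 3.90% and 0.406%, and 3.94% beside 4.30% in either direction. In none of the lines was the share in either direction above that of all tested transcripts. In all, 79 rose in at least 1 line (5.1% beside 5.51% of all tested) and 31 were called higher in each of the 4 (2.0% beside 2.42%).

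The line counts depended on which pools were used. Without one of its own pools, the LD count was 38, 39 or 37 (replicates 1, 2 and 3), and the R-11268 count was 28, 32 or 33. The LDX count was 30 without replicate 1 or replicate 2, and the R-11272 count was 36 without replicate 2 and 39 without replicate 3. On the 6 libraries of the line alone, 3 were called in LDX and 32 in R-11272, the lines with the most deviant pools, and 127 in R-11268. These were 0.209% beside 0.499% of all tested in LDX, 2.2% beside 2.2% in R-11272 and 8.8% beside 8.19% in R-11268.

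**Figure D3:**
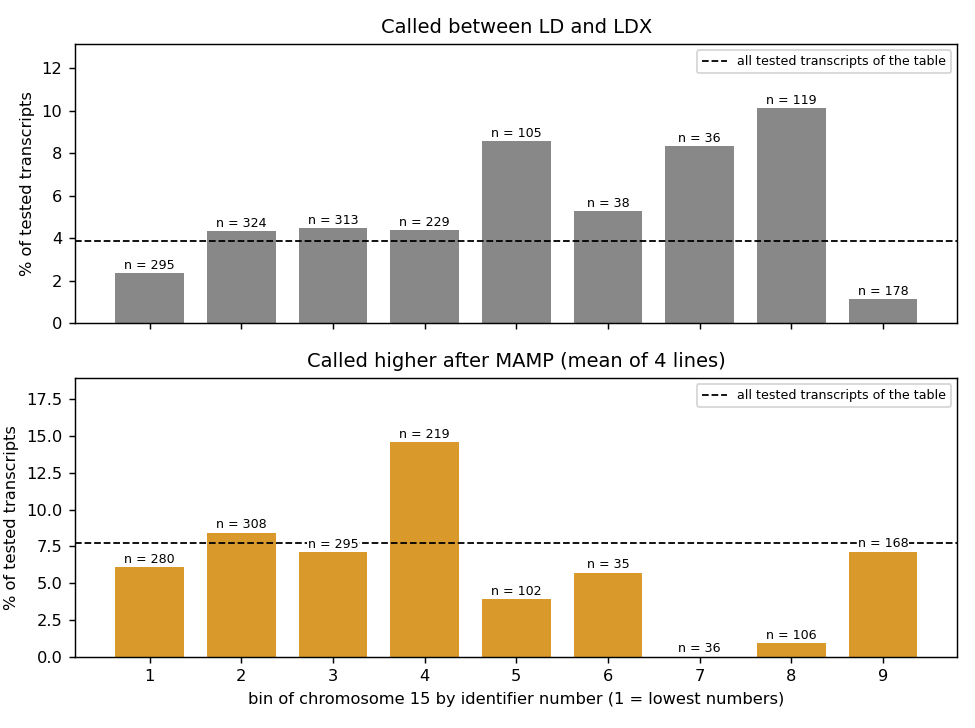
Share of tested chromosome 15 transcripts called, in 9 bins of 5000 identifier numbers each, for the parental difference in either direction (top) and for a rise with MAMP in the mean of 4 lines (bottom); n is the number tested and the dashed line the share over all tested transcripts of the table. The parental share peaks at 10.1% in bin 8, where the share that rose with MAMP is 0.943%, and the MAMP share peaks at 14.6% in bin 4.

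The rising transcripts were not spread like the parental differences. From 15000 to 19999, 32 of 219 tested transcripts (14.6%) rose, beside 7.75% of all tested. From 30000 to 34999 0 of 36 rose and from 35000 to 39999 1 of 106 (0.943%), the bin with the highest parental share. The bin with the lowest parental share, from 40000 on, had 12 of 168 rising (7.14%). No test was made of bins.

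Of the 115 rising transcripts, the next locus on the list also rose for 18 (15.7%), beside 19.7% over the 20 chromosomes. Among the strongest responses were 3 neighbours in a row from 11600 to 11620, with mean log2 responses of 4.05 to 4.69. Another 3 in a row from 17390 to 17420 rose by 1.86 at most, and 3 from 17230 to 17310 by 0.248 to 0.847. Whether neighbours share sequence, so that reads could be counted to either, was not tested.

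Of the transcripts that met the naming rule, which here asks for the same sign in all 4 lines, Glyma15g11620.1 had the largest response. It was scarce in control leaves and rose in every line. In control, LD had 0.305, 0.344 and 0.411 CPM, LDX had 0.134, 0.131 and 0.243, R-11268 had 0.368, 0.319 and 0.355 and R-11272 had 1.16, 0.249 and 0.281. After MAMP, LD had 9.22, 10.1 and 12.3, LDX had 5.21, 5.13 and 9.70, R-11268 had 7.38, 6.43 and 7.10 and R-11272 had 21.8, 4.71 and 5.29. All 12 MAMP libraries were above all 12 control libraries, and the first R-11272 pool was high in both treatments. The mean log2 response was 4.69 ± 0.31 (SE, edgeR adjusted p = 9.75e-10), with 4.87, 5.30, 4.30 and 4.30 in LD, LDX, R-11268 and R-11272.

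Its neighbour Glyma15g11610.1 behaved alike at a higher count. In control, LD had 1.01, 1.60 and 1.23 CPM, LDX had 0.304, 0.346 and 2.57, R-11268 had 1.57, 1.4 and 1.74 and R-11272 had 7.52, 1.96 and 1.97. After MAMP, LD had 33.2, 51.2 and 40.0, LDX had 18.4, 21.1 and 159, R-11268 had 21.6, 19.3 and 23.8 and R-11272 had 64.8, 17.0 and 17.0. Again no MAMP library fell within the control range, and LDX replicate 3 and R-11272 replicate 1 were the high pools of their lines in both treatments. The mean log2 response was 4.50 ± 0.46 (SE, edgeR adjusted p = 5.29e-07).

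The falls were modest. Glyma15g23750.1 went from 19.8, 45.2 and 10.7 CPM in LD control to 12.7, 28.3 and 6.80 after MAMP, and from 13.4, 15.1 and 8.82 to 4.98, 5.64 and 3.27 in R-11268. The pools of LD overlapped between treatments and those of R-11268 did not. The mean log2 response was -1.09 ± 0.33 (SE, edgeR adjusted p = 0.04), and it missed the threshold in 7 of 19 alternatives, each leaving out 1 pool: LD replicate 1, LDX replicate 1 or 2, any R-11268 replicate, or R-11272 replicate 2, with adjusted p from 0.0577 to 0.0959.

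Glyma15g01770.1 fell by a like amount in the mean of the lines. It went from 4.67, 1.86 and 2.08 CPM to 2.20, 0.854 and 0.971 in LD, and from 3.25, 1.59 and 2.29 to 1.02, 0.505 and 0.742 in LDX. In R-11272 it went from 0.811, 1.08 and 0.671 CPM to 0.624, 0.835 and 0.517. The LDX libraries did not overlap between treatments, and those of LD, R-11268 and R-11272 did. The log2 responses were -1.10, -1.64, -0.85 and -0.40 in LD, LDX, R-11268 and R-11272. The mean level fell by 1.00 on the log2 scale (SE 0.24, edgeR adjusted p = 0.00837), and it stayed past the threshold in 18 of 18 alternatives. As the ratio is the same in every pool of a line, leaving pools out says nothing of whether the fall was repeatable.

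**Figure D4:**
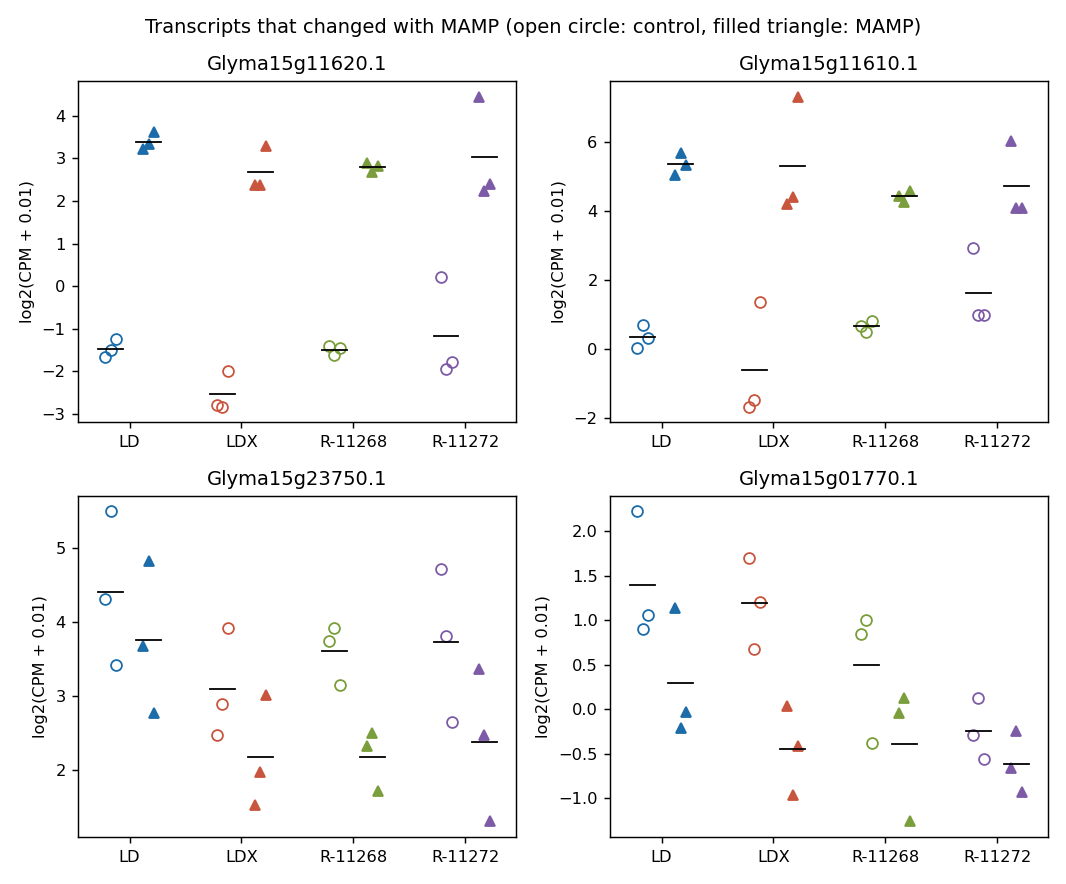
Level of the 4 transcripts named for their MAMP response, as log2(CPM + 0.01), in each library of the 4 lines; open circles are control, filled triangles MAMP, and black bars the mean of 3 libraries on that scale. In Glyma15g11620.1 and Glyma15g11610.1 all 12 MAMP libraries lie above all 12 control libraries, and in Glyma15g23750.1 and Glyma15g01770.1 the treatments overlap across lines.

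A joint test of whether the MAMP response differed between the 4 lines called 3 of 1549 chromosome 15 transcripts (0.194%), beside 0.148% of all tested transcripts. The clearest was Glyma15g11930.1. Its control values were 12.4, 19.3 and 17.1 CPM in LD and 5.12, 6.10 and 6.33 in R-11272, and its MAMP values were 5.84, 8.88 and 8.02 in LD and 18.2, 21.8 and 22.5 in R-11272. LD fell by 1.10 on the log2 scale (edgeR adjusted p = 0.0103) and R-11272 rose by 1.83 (edgeR adjusted p = 7.73e-05), with no overlap between treatments in either line. The estimates in LDX and R-11268 were -0.85 and -0.45, neither past the threshold. The test of the difference gave an edgeR adjusted p of 0.00175 and held in 18 of 18 alternatives. Many of these left out pools, which can hardly move a response whose ratio is the same in every pool. They do not show that the response was repeatable. After MAMP the R-11272 libraries overlapped the control libraries of LD and of LDX, where values were 16.9, 16.9 and 28.8 CPM.

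Glyma15g11600.1, the first of the 3 strongly responding neighbours, rose in every line but not equally. In control, LD had 4.42, 4.75 and 5.19 CPM, LDX had 3.18, 2.98 and 3.98, R-11268 had 6.82, 7.14 and 8.82 and R-11272 had 6.20, 4.38 and 4.26. After MAMP, LD had 133, 139 and 154, LDX had 66.2, 62.8 and 85.1, R-11268 had 66.6, 70.0 and 85.8 and R-11272 had 76.0, 54.2 and 52.4. LD was above the other 3 lines after MAMP, with no overlap, and its log2 response of 4.89 was above the 4.40, 3.28 and 3.62 of LDX, R-11268 and R-11272. The edgeR adjusted p of the difference was 0.0365. It missed the threshold in 11 of 18 alternatives, among them each LD, each R-11268 and 2 pools each of LDX and R-11272 left out in turn (adjusted p from 0.0583 to 0.178), and was 0.149 among transcripts with a mean of 100 or more counts.

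The third, Glyma15g05760.1, had a mean of 7.25 estimated counts per library, under the minimum of 20 for naming, and is named because so few were called, after its values were seen. It had 1.07, 0.763 and 0.740 CPM in LD control and 0.255, 0.176 and 0.174 in LD MAMP. In R-11272 it had 0.130, 0.217 and 0.0559 in control and 0.699, 1.17 and 0.301 in MAMP. The treatments did not overlap in either line and stood in opposite order, with a log2 response of 2.67 in R-11272 and of -2.06 in LD. LDX had -2.02 and R-11268 -0.09. The edgeR adjusted p of the difference was 0.0108, and it was 0.0594 without R-11272 replicate 1 and 0.142 without the 3 pools that stood apart.

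**Figure D5:**
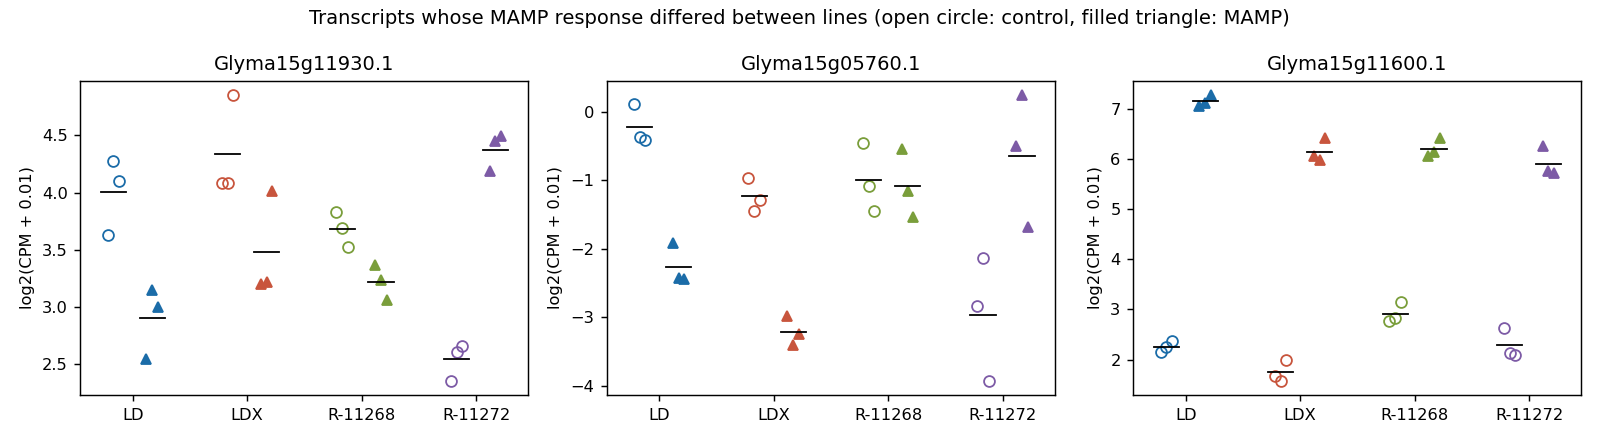
Level of the 3 transcripts whose MAMP response differed between lines, as log2(CPM + 0.01), in each library; open circles are control, filled triangles MAMP, and black bars the mean of 3 libraries on that scale. In Glyma15g11930.1 R-11272 is higher after MAMP where the other 3 lines have lower means, and in Glyma15g11600.1 all lines rise and LD is highest after MAMP.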

How the data were processed

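RNA-seq libraries were made with the TruSeq v2 kit, per the labels' protocols, and the submitters' processing notes list Cufflinks 1.1.0, TopHat 1.4.1 and Bowtie 0.12.7. Neither the genome build nor the annotation is given in the sources used here. The deposited values are estimated counts per transcript for the 24 libraries, which the authors left unscaled for library size. They have the form of fitted values, but no source used here names the step behind this form. Columns marked P were read as MAMP, and the columns of the inbred lines were matched to R-11268 and R-11272 by their number. Estimated counts were rounded and tested in edgeR 4.0.16 (R 4.3.3) with filterByExpr, TMM scaling and Benjamini-Hochberg adjustment over every tested transcript. Line differences used 12 pool sums and 4 line means (8 residual df, 34807 transcripts tested). MAMP responses used 24 libraries and 8 group means (16 residual df, 33214 tested). SEs were taken from the log2 value and its F statistic. Levels for placement were log2 CPM with a prior count of 2, 1 transcript per locus.

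Same-numbered control and MAMP libraries deviated together (lowest correlation 0.998, against at most 0.875 between different numbers, 1312 chromosome 15 transcripts), so the numbers pair the samples. Fits were tested on simulated counts drawn independently, without the constant ratio of the deposited values. They do not show how the fits behave on values of this form. Named transcripts were called, had a mean of 20 or more estimated counts, did not overlap between lines or kept one sign in 4 lines, and had the largest log2 values, at most 2 per direction. The members, lists and tests were chosen with earlier results of these data known. Whether the pools of a line were grown apart is not given, so p-values measure the spread between these pools. DESeq2 1.42.0 and limma 3.58.1 served as alternatives. The comparisons of inbred lines with parents, and the fits without 3 pools, were added after the data had been seen.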

Additional observations from a re-analysis of the deposited data

Results flagged for a closer look

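The MAMP response differed between the 4 lines in the joint edgeR test for 3 chromosome 15 transcripts, with adjusted p of 0.00175 for Glyma15g11930.1, 0.0108 for Glyma15g05760.1 and 0.0365 for Glyma15g11600.1. In Glyma15g11930.1 and Glyma15g05760.1 the R-11272 estimate was positive (1.83 and 2.67 on the log2 scale) and those of the other 3 lines negative. In Glyma15g11600.1 all 4 estimates were positive, from 3.28 to 4.89.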

How the results depend on the processing

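No named transcript turned its direction. For the MAMP responses this was largely fixed in advance where pools were left out, as the ratio is constant within a line. The larger of the higher and lower counts changed sides in 15 fits: 11 of line differences, among them R-11268 minus LD in MAMP libraries (21 higher and 13 lower, then 13 and 18) and R-11272 minus LD without the 3 pools apart (23 and 17, then 27 and 37), and 4 with a replicate block. Line counts follow, with main values in brackets and the chromosome 15 share beside that of all tested. LD minus LDX [73] was 18 with a mean of at least 100 counts (1.63% beside 1.16%), 200 on 24 libraries (12.9% beside 13.9%) and 41 on the pools of the 2 lines (2.62% beside 1.92%). It was 155 without the 3 pools apart (9.47% beside 8.1%), and 60 to 91 with each pool left out (2.42% to 5.13% of all tested). R-11268 minus R-11272 [28] was 2 (0.181% beside 0.243%), 105 (6.78% beside 5.4%) and 18 (1.13% beside 0.823%) under the first 3 of these. It was 13 in control (0.868% beside 1%) and 16 in MAMP libraries (1.06% beside 1.08%), and 15 to 34 with each pool left out (0.828% to 1.55% of all tested). R-11268 minus LD [34] was 57 with no filter (2.84% beside 1.9%), 4 with the mean filter (0.362% beside 0.213%) and 10 in control libraries (0.668% beside 0.796%). With each pool left out it was 19 to 43 (0.74% to 1.8% of all tested). R-11268 minus LDX [30] was 47 with no filter (2.34% beside 2.2%), 2 with the mean filter (0.181% beside 0.413%) and 17 in MAMP libraries (1.13% beside 1.27%). It was 51 without the 3 pools (3.12% beside 3.21%), and 20 to 40 with each pool left out (1.22% to 2.48% of all tested). R-11272 minus LD [40] was 62 with no filter (3.09% beside 3.56%), 2 with the mean filter (0.181% beside 0.541%) and 18 in control libraries (1.2% beside 1.85%). It was 64 without the 3 pools (3.91% beside 4.78%), and 18 to 52 with each pool left out (1.52% to 4.06% of all tested). R-11272 minus LDX [55] was 12 with the mean filter (1.08% beside 0.358%), and 35 to 51 with each pool left out (1.08% to 1.56% of all tested). The line fits on 24 libraries, with 200 and 105 calls, take the paired control and MAMP libraries of a pool as separate replicates. They therefore see too little error. The cause of the other moves was not tested.

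MAMP counts with the mean filter and without the 3 pools were 83 and 243 for the mean response [148], 1 and 9 for the joint test [3], 40 and 108 for LD [69], 27 and 97 for LDX [48], 31 and 153 for R-11272 [61], and 29 and 131 for R-11268 [50]. In the same order, the shares of all tested were 9.83% and 17%, 0.0416% and 0.479%, 5.19% and 7.52%, 3.95% and 6.6%, 4.33% and 9.62%, and 3.8% and 8.19%. With each pool left out the counts were 122 to 152, 2 to 5, 37 to 84, 30 to 61, 36 to 79 and 28 to 61. The shares of all tested moved with them, as in the mean response, from 8.28% to 10.2%. On the libraries of the line alone, LDX gave 3 (0.209% beside 0.499% of all tested), R-11268 127 (8.8% beside 8.19%) and R-11272 32 (2.2% beside 2.2%).

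The paired fit, with a replicate block, gave 884 calls for the mean, 863 for the joint test, and 684, 641, 548 and 769 in LD, LDX, R-11268 and R-11272. These counts carry no weight: with a constant ratio in every pool of a line, the block leaves no residual spread.

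The LD-like share of R-11268 [19.2%] was 0.0% with the mean filter, 41.0% placed by tests, 44.2% without the 3 pools, and 20.7% to 38.9% with each pool left out. That of R-11272 [81.4%] was 64.7% with the mean filter, 65.1% without the 3 pools, and 75.5% to 87.8%. The share of R-11268 was also 37.5% with a window of 0.4 and 36.0% in control libraries. Of the alternatives, 194 counts and shares lay within 1.5 times the main count or the 95% binomial interval of the main share, which is wide, and 71 did not, and of those for named transcripts 232 kept their call and 40 lost it, each with the same direction. Depth limits scarce transcripts most, where the deposited values also understate counting error.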
